A study of Mus musculus with 120 samples.

Results

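The genes described here make and store fat under the control of insulin: Fasn, Acaca, Acly, Scd1, Elovl6, Srebf1, Me1, Thrsp, Dgat2 and Pck1. They were found by gene name in the count tables of both sequencing batches, where all 10 were present among 55487 shared genes. They were measured by RNA sequencing in 120 biopsies of the immunological niche (IN), a porous polycaprolactone scaffold placed under the skin of female mice, where host immune and stromal cells gather. The NOD mice, a strain that develops autoimmune diabetes, were split into progressors, which became hyperglycemic, and nonprogressors, which did not, and NOR mice served as the related strain that stays free of diabetes. The strains were NOD/ShiLtJ and NOR/LtJ. All groups carried the scaffold, and a removed scaffold was replaced with a new one, so that a mouse gave several biopsies.

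Progressors gave 10 biopsies at the age of 6 weeks and 8 taken 7 weeks ahead of onset. They gave 10 more at each of 5, 3 and 1 weeks ahead of it and at onset of hyperglycemia. Nonprogressors gave 11 biopsies at 6 weeks of age, 4 at 10 weeks, 10 at 14 weeks and 4 each at 18 and 22 weeks. NOR mice gave 4 at 6 weeks, 5 each at 10 and 14 weeks, 4 at 18 weeks and 5 at 22 weeks, all of them in batch 1. A further 6 nonprogressor biopsies are labelled only by days after implantation and entered no test.

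Insulin drives fat storage in adipocytes by letting glucose in and by raising the transcription factor encoded by Srebf1, whose targets include the enzymes of fatty acid synthesis. Acly splits citrate to give cytosolic acetyl-CoA, Acaca turns it into malonyl-CoA, and Fasn builds palmitate from both with NADPH, part of which comes from malic enzyme (Me1). Elovl6 lengthens palmitate, Scd1 puts in the first double bond, Thrsp is a nuclear protein that rises with lipogenesis, and Dgat2 joins the last acyl chain onto triglyceride. Pck1 stands apart: in adipocytes its product feeds glyceroneogenesis, which makes the glycerol backbone during fasting, and insulin lowers its transcription. Adipoq encodes adiponectin, a hormone made by adipocytes, and served as the reference for adipocyte RNA.

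The members lie on 6 chromosomes in GRCm38 (GENCODE M21), each a protein-coding gene. Srebf1 (11:60199089-60222581, minus strand), Acaca (11:84129672-84401651, plus), Acly (11:100476353-100528000, minus) and Fasn (11:120805846-120824547, minus) share chromosome 11. Thrsp (7:97412938-97417730) and Dgat2 (7:99153658-99182719) share the minus strand of chromosome 7. Pck1 (2:173153048-173159273) and Elovl6 (3:129532355-129638495) are on plus strands, Me1 (9:86581371-86695953) and Scd1 (19:44394455-44407879) on minus strands, and Adipoq is at 16:23146536-23158028, plus strand.

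RefSeq promoters (GRCm38.p6) were matched by symbol for 8 of the 10 members, all but Scd1 and Dgat2. The 250 bases upstream of the RefSeq start are printed for Fasn, Thrsp and Pck1, since the account below turns on how Fasn, on the one hand, and Thrsp and Pck1, on the other, vary with Adipoq, and for Adipoq itself. The start is the one RefSeq gives, which for Thrsp and Pck1 lies inside the GENCODE span given above, so that these 2 windows run past the GENCODE start into the gene. Capitals mark CCAAT, read on both strands, in Fasn (chr11:120824548-120824797, minus strand), Thrsp (chr7:97417551-97417800, minus) and Adipoq (chr16:23146286-23146535, plus), and TGACG, the core of the cyclic AMP response element, in Pck1 (chr2:173152823-173153072, plus), also on either strand (CGTCA here).
Fasn: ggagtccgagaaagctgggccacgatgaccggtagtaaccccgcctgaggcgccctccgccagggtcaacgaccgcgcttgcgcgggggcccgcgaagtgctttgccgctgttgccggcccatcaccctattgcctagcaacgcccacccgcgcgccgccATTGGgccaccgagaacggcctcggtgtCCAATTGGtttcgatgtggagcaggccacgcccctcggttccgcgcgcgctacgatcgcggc
Thrsp: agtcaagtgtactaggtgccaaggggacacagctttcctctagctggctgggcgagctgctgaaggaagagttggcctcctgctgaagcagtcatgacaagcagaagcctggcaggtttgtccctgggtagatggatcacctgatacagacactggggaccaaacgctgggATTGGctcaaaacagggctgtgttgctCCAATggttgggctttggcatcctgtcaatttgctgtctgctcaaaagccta
Pck1: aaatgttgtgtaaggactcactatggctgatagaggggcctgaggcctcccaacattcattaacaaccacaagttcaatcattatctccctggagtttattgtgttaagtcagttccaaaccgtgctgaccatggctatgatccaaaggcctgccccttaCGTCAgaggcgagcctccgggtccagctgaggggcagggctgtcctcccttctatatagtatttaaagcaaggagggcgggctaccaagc
Adipoq: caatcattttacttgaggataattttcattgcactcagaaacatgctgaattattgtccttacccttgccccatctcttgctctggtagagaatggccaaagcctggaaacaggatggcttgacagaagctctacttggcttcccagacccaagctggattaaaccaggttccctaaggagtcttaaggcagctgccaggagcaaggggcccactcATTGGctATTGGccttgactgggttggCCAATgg
CCAAT, a sequence bound by nuclear factor Y, occurred 3 times in the Fasn window, where 2 matches overlap, 2 times in that of Thrsp and 3 times in that of Adipoq. It was in 11120 of 32851 promoter windows of this length (33.85%). TGACG was in the Pck1 window once, 90 bases upstream of the start, and in 17.8% of all windows. TCACNCCAC, a sterol regulatory element spelling, was in 1.05% of all windows and in none of the 4 printed.

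Levels are given as CPM, the count of a gene relative to the total of its library, after TMM scaling over all samples. Total counts ran from 4722396 to 56185434 per biopsy, with a median of 33487260.5. A gene was called changed where the edgeR quasi-likelihood test gave a Benjamini-Hochberg adjusted p under 0.05 over all genes. The 18-week biopsy of NOR mouse 5 gave 85.7% of its counts to 1 ribosomal RNA gene, and the 4 nonprogressor libraries of 22 weeks gave 12.8% to 30.5% to a 7SL RNA gene, so results that rest on them are also given without them. RNA was taken from whole biopsies, in which fewer adipocytes and less RNA per adipocyte cannot be told apart.

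Adipocyte RNA itself varied widely between biopsies. Adipoq ran from 0 CPM in the NOR library rich in ribosomal RNA to 155 CPM in a progressor 7 weeks before onset. The summed level of the 12 genes on the adipocyte list, Adipoq included, ran from 56.2 to 2476 CPM across the 30 biopsies taken 5 to 1 weeks before onset. The 5 brown adipocyte genes summed to at most 10.2 CPM in the same biopsies and to at most 48.7 CPM in nonprogressors of 14 to 22 weeks.

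The question of the first comparison was whether lipogenic genes change as hyperglycemia is reached. At onset Fasn sat in a narrow, low band. Fasn, the fatty acid synthase, was at 90.2, 103 and 197 CPM (lowest, median and highest of 10) at onset, against 84.1, 163 and 696 at 5 weeks before, 110, 292 and 1846 at 3 weeks, and 118, 318 and 897 at 1 week before. The floor was thus shared and the high biopsies were missing at onset: 17 of the 30 earlier biopsies lay above the highest onset value. Each of the 10 mice had less Fasn at onset than its own mean over the 3 earlier times on the log2 scale, and 8 had less than 1 week before. The groups overlapped at their low end. Adipoq at onset was below its own earlier mean in 7 of the mice and below 1 week before in 8. Of the 30 earlier biopsies, 13 lay above the highest onset value of Adipoq.

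**Figure D1:**
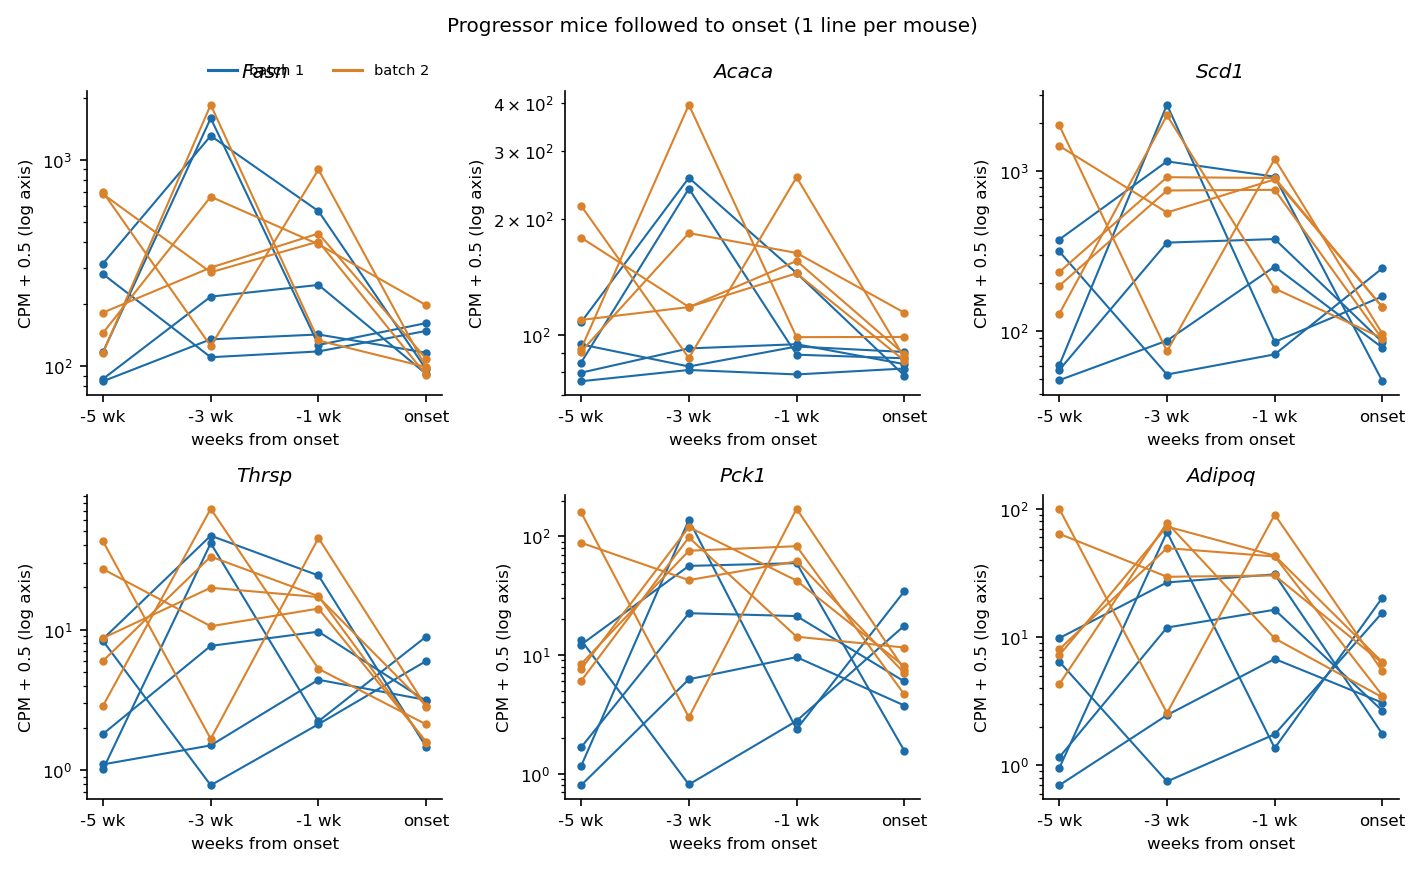
Levels of 5 members and Adipoq in the 10 progressor mice, 1 line per mouse, at 5, 3 and 1 weeks before onset and at onset (CPM + 0.5, log axis; blue batch 1, orange batch 2). Fasn spans 84.1 to 1846 CPM before onset and 90.2 to 197 at onset, while Adipoq of 3 mice did not lie below its earlier mean.

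Scd1, the stearoyl-CoA desaturase, showed the same shape. It was at 47.9, 92.4 and 246 CPM at onset, against 48.6, 212 and 1934 at 5 weeks before, 52.8, 653 and 2602 at 3 weeks, and 70.8, 569 and 1192 at 1 week before. Onset was below the own earlier mean in 9 of 10 mice, and 18 of 30 earlier biopsies exceeded the highest onset value. Thrsp was at 0.964, 2.35 and 8.43 CPM at onset, against 0.28, 8.15 and 72 over the 30 earlier biopsies. Dgat2 was at 5.27, 7.01 and 30.4 CPM at onset and at 3.1, 22.8 and 137 earlier. Fasn, Scd1, Thrsp and Dgat2 therefore shared low onset values, and their ranges overlapped with the earlier ones.

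The fitted log2 fold changes of onset against the mean of 5, 3 and 1 weeks before were below 0 for all 10 members, with a median of −1.24 against −0.01 over all genes tested. None of the 10 passed the threshold in edgeR, in which 0.282% of all genes were called and 0.0564% were called lower. At an unadjusted p under 0.05 there were 8 members (all but Acly and Srebf1). For such unadjusted counts, here and below, no share over all genes is given. Most members also vary together with Adipoq between biopsies (r below), so the members counted are not separate results. DESeq2 called 3, Fasn, Scd1 and Thrsp, and 507 of all genes. Scd1 had the smallest p, with a fold change of −2.38 (SE 0.70), and an adjusted p of 0.0904. Fasn stood at −1.72 (SE 0.54, adjusted p = 0.104) and Thrsp at −2.42 (SE 0.86, adjusted p = 0.151). Dgat2 stood at −1.75 (SE 0.66, adjusted p = 0.172).

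Acly, Srebf1, Acaca, Elovl6 and Me1 differed less. Acly, at 119, 144 and 168 CPM at onset and 112, 146 and 243 earlier, had a fold change of −0.10 (SE 0.08, adjusted p = 0.51). Srebf1, at 64.4, 84.0 and 114 CPM at onset and 56.4, 88.8 and 155 earlier, had −0.13 (SE 0.12, adjusted p = 0.61). The medians of both genes lay close together in the 2 sets of biopsies, whose ranges overlapped. Acaca was at 78.0, 86.7 and 114 CPM at onset and at 75.4, 103 and 396 earlier. Elovl6 was at 3.97, 6.13 and 17.0 CPM at onset and at 4.09, 8.29 and 46.9 earlier. Me1 was at 5.93, 11.3 and 23.6 CPM at onset and at 8.02, 18.0 and 75.2 earlier. Each of these 3 genes had a lower highest value at onset, with overlapping ranges. Acaca stood at −0.59 (SE 0.26), Elovl6 at −0.73 (SE 0.31) and Me1 at −0.75 (SE 0.29), all with adjusted p from 0.187 to 0.237.

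Pck1, which insulin represses, had a fold change of the same sign as the lipogenic genes, and it did not pass the threshold. It was at 1.06, 6.80 and 34.0 CPM at onset and at 0.299, 17.3 and 170 CPM over the earlier biopsies. Its fold change was −1.99 (SE 0.95, adjusted p = 0.277), and 7 of 10 mice were below their own earlier mean. Adipoq, at 1.25, 3.95 and 19.8 CPM at onset and 0.2, 10.3 and 99.5 earlier, had −1.83 (SE 0.91, adjusted p = 0.301), and also 7 of 10 mice.

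The batches differed in size. Within batch 2 the test called Scd1 at −2.91 (SE 0.90, adjusted p = 0.0318) and Thrsp at −3.62 (SE 1.12, adjusted p = 0.0332). Adipoq was at −3.22 (adjusted p = 0.0394). Over all genes as well, batch 2 alone gave far more calls than the fit of both batches (counts below). Within batch 1 no member passed, with Scd1 at −1.57 (SE 0.83) and Adipoq at −0.17. All members were below 0 in each batch. Leaving out 1 mouse at a time gave 0 to 1 members called, the 1 arising without progressor mouse 2.

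No gene of the marker lists of other tissues passed the threshold, and the lists are described by their medians. The adipocyte list was below 0 in 12 of 12 genes, with a median of −1.57, and its summed level was 140, 216 and 1086 CPM at onset and 56.2, 517 and 2476 earlier. The erythroid list had a median of −1.33, the mammary epithelium list −0.96, the skeletal muscle list −0.81 and the hair follicle list 3.86. The sum of the 4 hair follicle genes reached 5419 CPM at onset and 4739 earlier, and the sebaceous gland list, whose cells also make lipid, had a median of 0.04. The part of these tissues in the fold changes of the members was not tested.

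**Figure D2:**
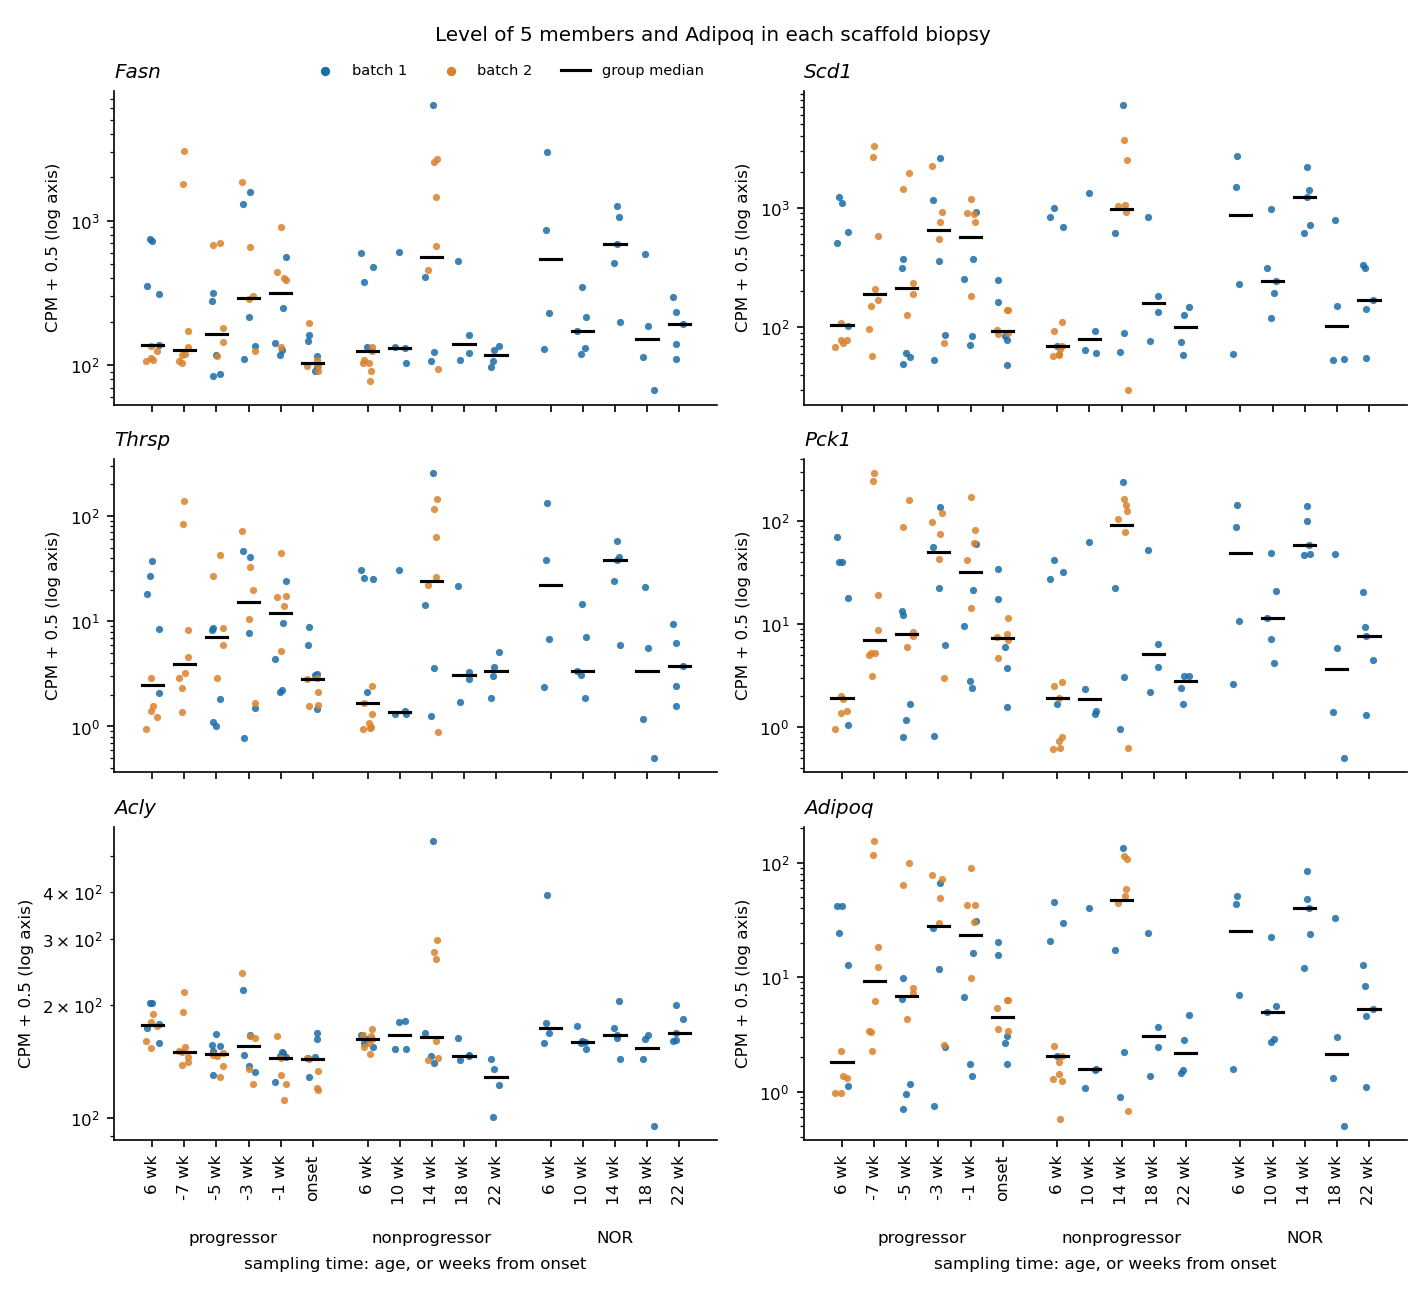
Levels of 5 members and Adipoq in each biopsy labelled by age or by weeks from onset (CPM + 0.5, log axis; blue batch 1, orange batch 2; black bars are group medians). Fasn, Scd1, Thrsp and Pck1 follow the spread of Adipoq between biopsies of the same group, and Acly stays between 94.9 and 548 CPM.

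No member was called over the last week before onset. Against 1 week before, onset gave fold changes below 0 in 9 of 10, with 0 called in edgeR (background 0.0047%) and 0 in DESeq2, and 4 at an unadjusted p under 0.05. Scd1 stood at −2.24 (SE 0.77, adjusted p = 0.406) and Fasn at −1.53 (SE 0.60, adjusted p = 0.433). Between 1 week before and the mean of 5 and 3 weeks before, 0 of 10 were called by either tool (background 0%), 1 member had an unadjusted p under 0.05, and Acly stood at −0.17 (SE 0.08, adjusted p = 0.384).

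The biopsies of 7 weeks before onset, all from batch 2, held the highest Fasn and Pck1 values of the progressors. Fasn was at 103, 126 and 3012 CPM there, and Pck1 at 2.67, 6.52 and 292 CPM. The highest values of both came from mouse 7, whose Adipoq was also the highest of all samples at 155 CPM.

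Against 6 weeks of age, 1 of the 10 members fell by onset, against 39.6% of all genes called, 20% lower and 19.6% higher. This was Acly, with a fold change of −0.35 (SE 0.09, adjusted p = 0.0018). It was at 153, 177 and 203 CPM at 6 weeks and at 119, 144 and 168 at onset, and 9 of 10 mice had less at onset. DESeq2, which called 8767 of all genes, added Scd1, for which edgeR gave −1.82 (SE 0.77, adjusted p = 0.055). Within batch 1 Acly had −0.29 (adjusted p = 0.0802) and within batch 2 −0.40 (adjusted p = 0.0294). The other members differed by batch: all 10 were below 0 in batch 1 and 4 of 10 in batch 2, where Scd1 stood at 0.43 (SE 0.91) and Pck1 at 2.80 (SE 1.30, adjusted p = 0.0965).

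The 6-week biopsies differed by batch in both NOD groups. Adipoq was at 0.624, 24.0 and 41.7 CPM in the 5 progressor biopsies of batch 1 and at 0.465, 0.816 and 1.76 in the 5 of batch 2. In nonprogressors it was at 1.56, 24.8 and 45.2 CPM in batch 1 and 0.0749, 0.929 and 1.99 in batch 2. Fasn followed, with medians of 351 and 111 CPM in progressors. Between progressors and nonprogressors of 6 weeks, 0 of 10 were called by either tool (background 0%), Acly alone had an unadjusted p under 0.05, and fold changes ran from −0.19 (Elovl6, SE 0.20) to 0.28 (Pck1, SE 0.66).

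The next comparison set onset against nonprogressors of 14 to 22 weeks of age, whose counts were summed per mouse (10 mice). Nonprogressor biopsies reached far higher. Fasn was at 93.7, 149 and 6293 CPM in 18 biopsies, Scd1 at 29.3, 165 and 7194 CPM, and Thrsp at 0.385, 3.88 and 256 CPM. The highest value of each was the 14-week biopsy of mouse 2, and 8 of 18 biopsies exceeded the highest onset value for each of these 3 genes. Pck1 was at 0.128, 4.59 and 239 CPM, with 7 of 18 above the highest onset value. The ranges overlapped at their low end. The median at onset was above that of nonprogressors for Adipoq (3.95 against 3.69 CPM), Pck1 (6.80 against 4.59) and Acaca (86.7 against 80.4). It was below for the remaining members, with Fasn at 103 against 149 CPM. This comparison and the next use the same onset biopsies as the first, so they are not independent of it.

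All 10 fold changes were below 0, with a median of −2.30 against 0.00 over all genes, yet edgeR called 0 of 10 (background 0.0105%). All 10 had an unadjusted p under 0.05, a count with no share over all genes beside it. DESeq2 called 8, all but Acly and Srebf1, and 552 of all genes. Fasn stood at −3.11 (SE 0.61), or 8.65-fold lower, with an adjusted p of 0.0771. The fold changes follow mean counts, to which the highest nonprogressor biopsies add most, and not medians. Scd1 stood at −3.37 (SE 0.71, adjusted p = 0.0857) and Thrsp at −4.15 (SE 0.93, adjusted p = 0.103). Dgat2 had −2.79 (SE 0.72), Pck1 −2.71 (SE 0.94) and Adipoq −2.62 (SE 0.93, adjusted p = 0.198).

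The batches differed here too. Batch 2, where the nonprogressor biopsies were all of 14 weeks and Adipoq there had a median of 54.3 CPM, gave 7 called members, among them Fasn at −3.49 (SE 0.74, adjusted p = 0.0199). Batch 1 gave 0, with Fasn at −2.64 (SE 0.91, adjusted p = 0.643). The calls over all genes were also far more numerous in batch 2 alone than in the fit of both batches (counts below). Ages and batches of the nonprogressor biopsies overlap only in part: Fasn at 14 weeks had a median of 264 CPM in batch 1 (4 biopsies) and 1067 CPM in batch 2 (6 biopsies), and in batch 1 it had 141 CPM at 18 weeks and 116 CPM at 22 weeks (4 biopsies each). Leaving out 1 mouse gave 0 to 3 called, 3 without nonprogressor mouse 1, 2 without nonprogressor mouse 5 and 1 without progressor mouse 2. Without the 22-week libraries the count was again 0. The skeletal muscle list had a median of −2.44 in the same comparison and the erythroid list −2.08, neither with a called gene, and their part was not tested.

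Before onset the groups were closer. Progressors of 5 to 1 weeks before onset had fold changes below 0 in 10 of 10 members against nonprogressors of 10 to 22 weeks, with a median of −0.87. None was called by either tool (background 0%), and Acly (−0.41, SE 0.15) and Me1 (−0.96, SE 0.42) had an unadjusted p under 0.05. Without the 22-week libraries 0 were called and the median was −0.99.

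Against NOR of 14 to 22 weeks of age, within batch 1, 1 of 10 members was called lower at onset, against 0.895% of all genes called lower, 1.11% higher and 2.01% in either direction. Fasn was at 148, 116, 91.3, 96.1 and 161 CPM in the 5 onset biopsies. In NOR it was at 1267, 505, 197, 690 and 1052 CPM at 14 weeks, at 585, 187, 114 and 66.6 at 18 weeks, and at 232, 109, 297, 141 and 192 at 22 weeks. Each 14-week NOR biopsy lay above each onset biopsy, and those of 18 and 22 weeks overlapped with onset. The 14-week NOR biopsies too were younger than the earliest onset in the paper, so age was not matched here either. Summed per mouse, the fold change was −1.89 (SE 0.36), or 3.72-fold lower, with an adjusted p of 0.0251.

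Scd1 came next against NOR at −2.40 (SE 0.53, adjusted p = 0.0516). It was at 246, 78.0, 84.5, 47.9 and 164 CPM at onset and at 2193, 611, 723, 1224 and 1399.9 CPM in NOR of 14 weeks. All 10 members were below 0, with a median of −1.15 against 0.01 over all genes, 6 had an unadjusted p under 0.05, and DESeq2 called 4. Adipoq stood at −1.40 (SE 0.82, adjusted p = 0.516). The call of Fasn held without the NOR library rich in ribosomal RNA (adjusted p = 0.0253), and it was lost with each biopsy as a sample (adjusted p = 0.327) and when 1 of 6 mice was left out (progressor mouse 1, 2, 3 or 4, NOR mouse 1 or 5), with adjusted p from 0.0503 to 0.0767.

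**Figure D3:**
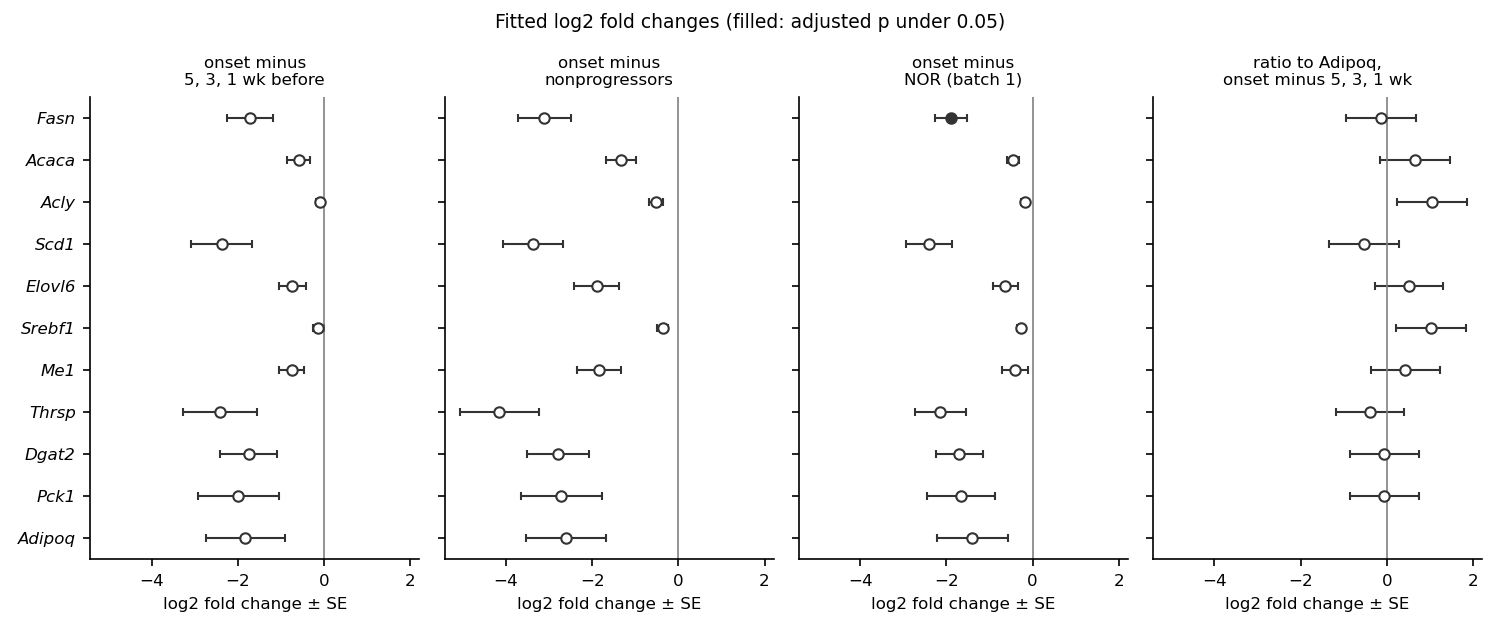
Fitted log2 fold changes (points) with standard errors (bars) of the members and Adipoq in 3 comparisons of onset, and of the members relative to Adipoq. All members lie below 0 in the first 3 panels, only Fasn against NOR is filled (adjusted p = 0.0251), and 5 of 10 lie below 0 relative to Adipoq.

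Between nonprogressors and NOR, compared within batch 1, 0 of 10 were called by either tool, against 6.29% of all genes (3.63% lower), and no member had an unadjusted p under 0.05. Fold changes ran from −0.44 (Pck1, SE 0.71) to 0.59 (Elovl6, SE 0.60). Without nonprogressor mouse 2 all 10 were below 0, with a median of −0.40. Without the 22-week nonprogressor libraries 0 were called, the median moved from 0.18 to 0.35 and Dgat2 from −0.14 to 0.07, and without the NOR library rich in ribosomal RNA the median was 0.19.

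With age in nonprogressors, 0 of 10 members were called by either tool between 14 to 22 weeks and 6 weeks, against 28.8% of all genes, and none had an unadjusted p under 0.05. The batches differed in direction. Within batch 2, where 6 biopsies of 14 weeks stood against 7 of 6 weeks, 9 members rose, all but Acly. The 28.8% above is from the fit of both batches and is no background for this count. Pck1 rose by 6.83 (SE 1.07, adjusted p = 0.000704), Thrsp by 6.21 (SE 0.96, adjusted p = 0.000654) and Fasn by 3.64 (SE 0.60, adjusted p = 0.000889), with Adipoq at 5.91 (adjusted p = 0.000663). Within batch 1 no member was called and Adipoq was at −1.58 (adjusted p = 0.387). Without the 22-week libraries 1 member rose, Srebf1 at 0.40 (SE 0.14, adjusted p = 0.0466). The share of all genes called is not given here for batch 2 alone or for the fit without the 22-week libraries.

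The change from 6 weeks to onset in progressors was then tested against the change from 6 to 14-22 weeks in nonprogressors. Each biopsy entered as a sample, with no mouse term. All 10 members were below 0, with a median of −0.99, and 0 were called by either tool (background 0.0264%). Fasn stood at −1.78 (SE 0.83, adjusted p = 0.522) with the only unadjusted p under 0.05. Without the 22-week libraries 0 were called and the median was −1.91, with Fasn at −2.58 (SE 0.87, adjusted p = 0.220). Within batch 2 Acly was called lower at −0.81 (SE 0.22, adjusted p = 0.0459). The share of all genes called in that fit is not given here.

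Relative to Adipoq the members fell into a graded order. Over the 58 progressor biopsies, centred within batch, Pearson's r of log2(CPM + 0.5) with Adipoq was 0.984 for Pck1, 0.958 for Thrsp, 0.957 for Dgat2 and 0.950 for Scd1. It was 0.860 for Fasn, 0.764 for Acaca and 0.752 for Srebf1, and 0.606 for Me1, 0.508 for Elovl6 and 0.172 for Acly. These are descriptions, since the points share mice and, within each, 1 library for both genes. Pck1, Thrsp, Dgat2 and Scd1 thus had the highest r, and Acly the lowest.

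Single biopsies near the ends of the Adipoq range show how the members differ. The lowest Adipoq was in the NOR library rich in ribosomal RNA, so the next lowest is given. In the nonprogressor biopsy of 6 weeks with 0.0749 CPM of Adipoq (mouse 6), Pck1 was at 0.125 CPM and Thrsp at 0.499 CPM. The same biopsy held 90.8 CPM of Fasn, 88.8 of Acaca, 166 of Acly, 64.9 of Scd1, 58.4 of Srebf1, 17.8 of Me1, 10.1 of Elovl6 and 2.90 of Dgat2. In the progressor biopsy with the highest Adipoq, 155 CPM (mouse 7, 7 weeks before onset), Pck1 was at 292, Thrsp at 138, Scd1 at 3292, Fasn at 3012, Acaca at 643, Acly at 216 and Srebf1 at 145 CPM. The nonprogressor biopsy of 14 weeks with the second highest Adipoq, 135 CPM (mouse 2), had less Pck1, at 239 CPM, and more Fasn, at 6293 CPM, and Acly, at 548 CPM. Pck1 and Thrsp were thus below 1 CPM in the biopsy with little Adipoq, and Fasn, Acaca, Acly, Srebf1 and Scd1 were above 50 CPM in it.

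**Figure D4:**
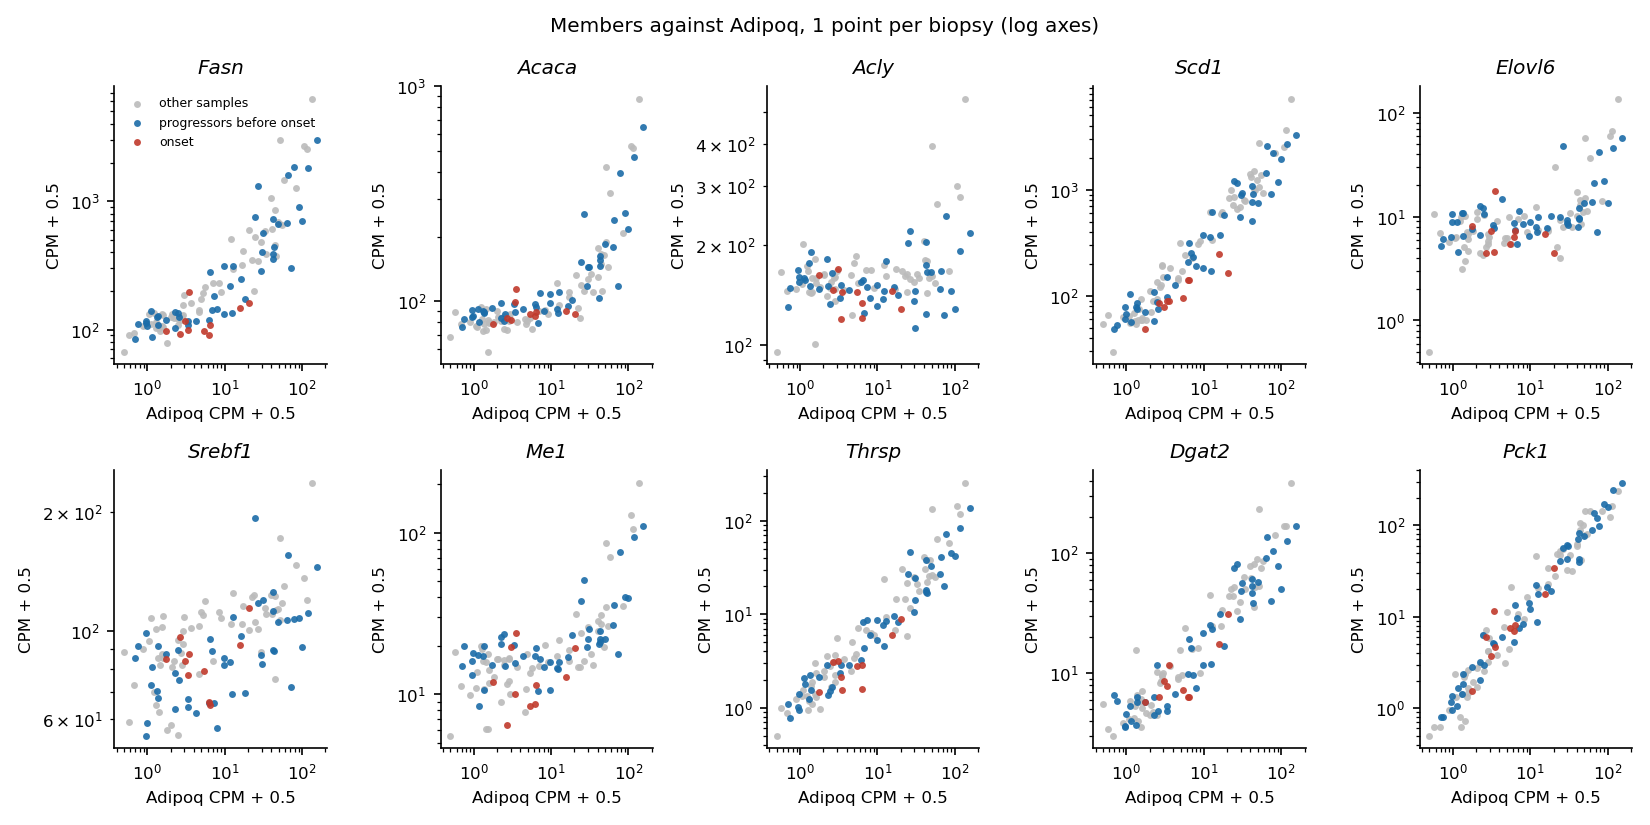
Each member against Adipoq in 120 biopsies (CPM + 0.5, both axes log; red onset, blue progressors before onset, grey nonprogressors and NOR). Pck1 and Thrsp lie on the straightest lines with Adipoq, Scd1, Dgat2 and Fasn level off at low Adipoq and rise above it, Acaca, Me1 and Elovl6 level off over a longer stretch, and Acly stays flat over most of the range.

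In the ratio to Adipoq the onset biopsies overlapped with the earlier ones. The log2 ratio of Pck1 to Adipoq was −0.17, 0.37 and 1.77 (lowest, median and highest) at onset and −0.02, 0.54 and 1.34 over the 30 earlier biopsies. That of Scd1 was 3.02, 4.58 and 5.00 at onset and 3.65, 4.90 and 6.15 earlier. Both ranges overlapped, and of the 10 members Elovl6 had the widest onset range, from −2.19 to 2.32.

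In the limma test of that ratio, 0 of 10 members were called between onset and the earlier biopsies (background 0%), with none at an unadjusted p under 0.05. The SE of the ratio was from 0.79 to 0.82 for the members, so that a log2 difference of 1 in either direction was within 2 SE of 0 and the test does not show that the ratios are alike. Pck1 stood at −0.06 (SE 0.79), Dgat2 at −0.06 (SE 0.80), Fasn at −0.13 (SE 0.81) and Scd1 at −0.53 (SE 0.82, adjusted p = 0.523). Acly and Srebf1 lay on the other side at 1.05 (SE 0.81) and 1.02 (SE 0.81), near the median of 1.12 over all genes. The sign differed by batch: all 10 ratios were below 0 in batch 1, with none called, and 1 of 10 in batch 2, where Acly and Srebf1 were called higher, as were 20014 of 21376 genes. Against nonprogressors, 0 of 10 were called (background 0%), none at an unadjusted p under 0.05, with Thrsp at −0.96 (SE 0.95) and Pck1 at −0.08 (SE 0.96), and the same limit holds there. Without the 22-week libraries that count was again 0.

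A count model with the log2 level of Adipoq as a covariate was fitted as an alternative. Scd1 fell at onset by 0.76 (SE 0.17, adjusted p = 0.0284 in edgeR), the only member called. The model also called genes outside the members (count below), where the ratio test called none. Fasn stood at −0.63 (SE 0.25, adjusted p = 0.179), Thrsp at −0.56 (SE 0.23, adjusted p = 0.188) and Pck1 at 0.19 (SE 0.18, adjusted p = 0.595). With the square of the covariate added, a choice made after seeing the curved plots, Scd1 stood at −0.68 (SE 0.17, adjusted p = 0.0517) and was no longer called. Against nonprogressors the covariate left Scd1 at −0.91 (SE 0.22, adjusted p = 0.245).

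The rest of the pathway showed few calls between onset and the earlier biopsies. Of 17 further genes of fatty acid synthesis and NADPH supply, 1 fell, Tmem120a at −0.48 (SE 0.09, adjusted p = 0.0108), which encodes a membrane protein of adipocytes, and the list median was −0.16. None was called of 9 triglyceride assembly genes measured of 10 (median −0.21), of 12 genes of glucose entry and insulin signalling (−0.09), of 13 of lipolysis and fasting (−0.42) or of 6 of glyceroneogenesis (−0.05). The 13 cholesterol synthesis genes had none called and a median of 0.10. Against NOR, Tkt of the pentose phosphate pathway was lower at onset by 0.37 (SE 0.06, adjusted p = 0.0135). Acss2, which makes acetyl-CoA from acetate, was higher by 1.13 (SE 0.16, adjusted p = 0.00394). That comparison is between strains, so strain and hyperglycemia cannot be told apart in it. Both genes were named after their values were seen.

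Genes outside the members with the most similar profile were ranked by Pearson's r with the mean standardised level of the members other than Pck1, over the 58 progressor biopsies centred within batch. They were Pcx, the pyruvate carboxylase (0.931), Aldh1a7 (0.926), Trhde (0.922), Tmem179 (0.911) and Mrap, a melanocortin receptor accessory protein (0.909).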

How the data were processed

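The authors deposited expected counts per gene as whole numbers, 1 table per sequencing batch, from ribosome-depleted total RNA. The submitters' processing notes name cutadapt, FastQC, STAR, RSEM, MultiQC and GRCm38, without versions. Counts of the 55487 shared genes were rounded, and edgeR 4.0.16 (R 4.3.3) fitted its robust quasi-likelihood model after TMM scaling and filterByExpr, with batch as a term where both batches entered. DESeq2 1.42.0 was the alternative. Counts were summed per mouse between groups. Each biopsy was a sample, with no mouse term in the main fit, within progressors, for age in nonprogressors and for the difference between the changes. Repeated biopsies of a mouse counted as replicates there. Ratios to Adipoq used limma 3.58.1 on log2(CPM + 0.5). Members, lists and tests were chosen with earlier results of these data known, and all members and Adipoq are named, with the 3 called genes of smallest p per direction and list at onset against 5 to 1 weeks before, and the 5 genes most like the members. Mouse numbers in the labels pair samples of 1 animal. Over 2000 genes in progressor biopsies, deviations of the same mouse correlated at −0.00949 (120 pairs). Those of different mice in the same batch correlated at 0.00397 (580 pairs). No such value is given for nonprogressors. All 416 pairs of replicates differed by more than counting noise, with chi-square over its degrees of freedom at 11.0 or above. The fits were checked on simulated counts. There edgeR recovered most of the genes set to differ, and the test of the ratio to Adipoq recovered few or none. One result outside the members is not reported here.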

Additional observations from a re-analysis of the deposited data

Results flagged for a closer look

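Of 165 sets of values (10 members and Adipoq in groups of 4 to 10 biopsies), 11 held a biopsy far from the rest of its group on the log2(CPM + 0.5) scale by Dixon's test, which flags about 1 in 20 by chance. In nonprogressors of 10 weeks, mouse 3 was far above the other 3 mice in 6 genes: Fasn at 604 CPM, Acaca at 130 CPM, Scd1 at 1330 CPM, Thrsp at 29.9 CPM, Pck1 at 62.2 CPM and Adipoq at 40.0 CPM. The group medians were 132 CPM for Fasn and 1.06 CPM for Adipoq. The same mouse was highest in Acaca at 18 weeks, at 118 CPM. The other biopsies that stood apart were NOR mouse 5 at 6 weeks for Acly at 394 CPM, progressor mouse 7 at onset for Elovl6 at 17.0 CPM, nonprogressor mouse 2 at 14 weeks for Srebf1 at 237 CPM and progressor mouse 5 at 6 weeks for Me1 at 37.1 CPM. The cause was not tested.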

How the results depend on the processing

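Counts are members called of 10. For onset against 5 to 1 weeks before, DESeq2 gave 3 where edgeR gave 0, batch 2 alone gave 2, and leaving out single mice gave 0 to 1. For onset against 6 weeks, DESeq2 gave 2 and batch 1 alone 0, where edgeR gave 1. For onset against nonprogressors, DESeq2 gave 8 and batch 2 alone 7, where edgeR gave 0, and single mice left out gave 0 to 3. For onset against NOR, no filter on low counts gave 0, each biopsy as a sample 0 and DESeq2 4, where edgeR gave 1, and single mice left out gave 0 to 2. For age in nonprogressors, batch 2 alone gave 9 and the fit without the 22-week libraries 1, where edgeR gave 0, and Elovl6 and Me1 turned from below 0 to 1.83 and 1.94 within batch 2. For the difference between the changes, batch 2 alone gave 1, where edgeR gave 0. For the ratio to Adipoq at onset against 5 to 1 weeks before, the covariate fit gave 1 and batch 2 alone 2, and against nonprogressors, single mice left out gave 0 to 2, where limma gave 0. The cause was not tested. The fit with the mouse as a replicate block gave 0 called members for onset against 5 to 1 weeks before and 1 against 6 weeks, and it changed no other call. Over all genes at onset against 5 to 1 weeks before, edgeR called 60, DESeq2 507, no filter 25, DESeq2 size factors 110, batch 1 alone 0 and batch 2 alone 2511. Against nonprogressors edgeR called 2, DESeq2 552, no filter 1, batch 1 alone 0, batch 2 alone 1955, each biopsy as a sample 46 and the fit without the 22-week libraries 13. DESeq2 called 939 against 404 for NOR, 2551 against 1446 between nonprogressors and NOR, and 48 against 6 for the difference between the changes. Batch 1 alone gave 3526 against 8422 for onset against 6 weeks, and 3373 against 6092 for age in nonprogressors. The ratio to Adipoq at onset against 5 to 1 weeks before had 0 called genes, and 70 with the covariate. Without the 22-week nonprogressor libraries, an alternative chosen after seeing the data, the count against nonprogressors stayed 0. Depth of 4722396 counts in the biopsy with the lowest total limits Thrsp, Pck1 and Adipoq most where they are under 1 CPM. Most counts of the 18-week library of NOR mouse 5 went to a ribosomal RNA gene. Its values of 0 CPM for Adipoq, Pck1, Thrsp and Elovl6 are therefore limited by depth as well.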

Other observations

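The nonprogressor biopsies labelled by days after implantation, 2 each, are given as values only, since the labels tie them to no age. Fasn was at 388 and 339 CPM at 31 days, 652 and 197 CPM at 38 days, and 316 and 155 CPM at 108 days. Pck1 was at 30.8 and 54.7 CPM at 31 days, 79.8 and 16.0 CPM at 38 days, and 33.7 and 3.71 CPM at 108 days. Adipoq was at 33.8 and 26.1 CPM, 54.1 and 8.51 CPM, and 16.4 and 2.36 CPM in the same order, so the biopsy of each pair with the lower Adipoq also had the lower Fasn at each of these times, while Pck1 was higher in the biopsy with the lower Adipoq at 31 days.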
